A study of Mus musculus with 8 samples.

Results

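A set of 10 transcripts of muscle fibre nuclei was followed through 8 single-nucleus RNA-seq libraries of mouse gastrocnemius: Myhas, Mir133a-1hg, A930016O22Rik, 2310065F04Rik, F830016B08Rik, 9430073C21Rik, 2310016D03Rik, Platr31, Sorbs2os and Gm14505. They are 10 of the 21207 gene symbols found in all 8 count matrices. They were chosen by their UMI levels in these same data, in which they led groups of muscle fibre nuclei (myonuclei), and their levels by fibre type are given here as a description without a test. The set was labelled as long noncoding RNAs. GENCODE vM21 annotates 9 of the 10 as antisense or intergenic noncoding genes, but F830016B08Rik as protein coding, and the label does not hold for that gene. All 10 had UMIs in the myonuclei of all 8 libraries.

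The mice were wild-type C57BL/6 animals, and the study asked how gastrocnemius nuclei differed with age and with treadmill running. The Old group was 20 months and the Young group 3 months of age. The Running group consisted of 11-month-old mice that ran for 2 months, at 9 m per min and 30 min per session, and the Sedentary group of mice of the same starting age without training. Each group had 2 libraries, 1 in a 10x Genomics set (replicate 1) and 1 in a second set (replicate 2), from frozen muscle. The study's methods also name the DNBelab C system of MGI without saying which libraries it made. The second set is taken here to be of that system. The sources used here do not say how many mice entered each library or whether both libraries of a group came from separate animals. Each group had 1 library per set, and the set was a term of the fit. The p-values therefore measure how far the group differences disagree between the 2 sets. That disagreement may be partly technical, and the spread between animals cannot be told apart from it. The sex of these mice was not given either.

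Long noncoding RNAs are transcribed like messenger RNAs but are not translated. Many stay in the nucleus, where single-nucleus sequencing records them together with unspliced messenger RNA. A skeletal muscle fibre is a syncytium whose myonuclei express the myosin heavy chain gene of their fibre type: Myh4 in type IIb, Myh1 in type IIx, Myh2 in type IIa and Myh7 in slow fibres. The genes of the fast myosins lie next to each other, and noncoding transcripts between them are known in mouse muscle, with 2310065F04Rik studied as linc-Myh and Myhas as the antisense neighbour of Myh4. Mir133a-1hg is the host transcript of muscle microRNAs. F830016B08Rik encodes a member of the interferon-inducible GTPase family.

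After filtering, 64803 of 65280 deposited nuclei remained, with 4765224 to 44389777 UMIs per library. Median UMIs per nucleus were 1664 to 3001 in the 10x set and 909 to 1690 in the second set. Between 30 and 46 barcodes were shared by any pair of 10x libraries, at most 0.39% of the smaller library. Clusters called muscle fibre held 39761 nuclei, including nuclei of the myotendinous and neuromuscular junction, which were named by their markers. The other fibre clusters were called by a high level of the titin gene Ttn and low scores for classes outside muscle. Clusters left unnamed held 10696 nuclei, and some of these clusters were rich in muscle RNA. Of the libraries, 2 stood apart. In Old replicate 2, 65.1% of nuclei fell in unnamed clusters, mainly in 1 cluster of 2963 nuclei led by very long genes, and only 1405 nuclei were called myonuclei. In Sedentary replicate 1, 27.4% of nuclei were unnamed and 2.75% had the markers of fibro-adipogenic progenitors (FAP-like nuclei), against 5.09% to 14.2% and 13.7% to 22.4% in the other 10x libraries, and the values between Running and Sedentary rest partly on this library. The second set also carried much muscle RNA outside myonuclei. The titin gene Ttn reached 9928 to 15279 CPM (the UMIs of a gene per 1000000 UMIs of the summed nuclei) in FAP-like nuclei, which should lack it, against 13299 to 21101 in myonuclei. In the 10x set the same values were 2893 to 4442 against 45358 to 57151. An unnamed 10x cluster of 1957 nuclei, led by very long genes, had 55510 CPM of Ttn. Of its nuclei, 57.5% came from Sedentary replicate 1. An unnamed second-set cluster of 1168 nuclei led by Myl3 and Mb had 16374 CPM, and 62.4% of its nuclei came from Young replicate 2. Other named 10x clusters outside the fibre had more Ttn than FAP-like nuclei, from 5560 CPM in adipocytes to 15545 CPM in B cells. Fibre types are therefore described mainly from the 10x set.

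Of the transcripts, 3 lie in a stretch of 125113 bases among the fast myosin genes, all on the minus strand and opposite to the myosin genes. All positions are of GRCm38. 2310065F04Rik (chr11:67112461-67120080) is intergenic, 10170 bases from Myh3 and 50947 bases from Myh2. 9430073C21Rik (chr11:67195680-67199234) begins 818 bases from Myh1, and 51.7% of its length overlaps the end of Myh2. Myhas (chr11:67211256-67237573) starts 456 bases from Myh4 and runs away from it, so that 50.6% of its length overlaps Myh1. The other minus-strand genes are mostly inside coding genes: A930016O22Rik (chr7:19417466-19421417) inside Ckm, which encodes the muscle creatine kinase, Mir133a-1hg (chr18:10781723-10785883) inside Mib1, a ubiquitin ligase gene of Notch signalling, and Sorbs2os (chr8:45723325-45819297) inside Sorbs2, which encodes an adaptor protein of the Z-disc. On the plus strand, Platr31 (chr6:127100297-127110467) shares 91.1% of its length with Tigar, a regulator of glycolysis, which is read from the other strand. 2310016D03Rik (chr12:30410559-30467358, minus strand) lies between Sntg2 and Tmem18, Gm14505 (chrX:14796735-14839980) has no coding gene within 585074 bases, and F830016B08Rik (chr18:60293380-60303016) lies next to other genes of its GTPase family such as Iigp1. Whether counting used the strand is not given in the sources used here for the second set, and without strand, reads of an antisense gene and its partner cannot be told apart.

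**Figure D1:**
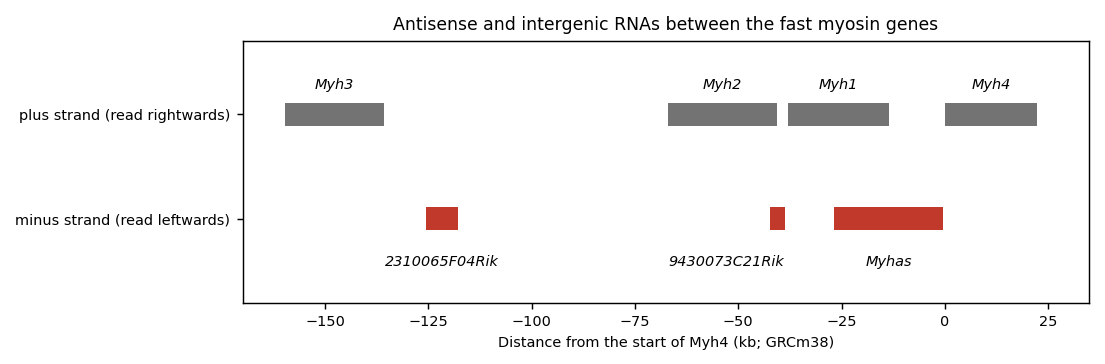
Position of 2310065F04Rik, 9430073C21Rik and Myhas (red, minus strand) beside Myh3, Myh2, Myh1 and Myh4 (grey, plus strand), in kb from the start of Myh4, drawn to scale. Myhas and Myh4 start 456 bases apart and point in opposite directions, and 9430073C21Rik overlaps the end of Myh2 and starts 818 bases from Myh1.

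RefSeq gave promoter sequences for 4 of the 10. They are shown because 3 of these genes had their highest 10x level in Myh4-dominant nuclei in most libraries and the last, 2310016D03Rik, in Myh1- or Myh2-dominant nuclei. Each runs from 250 bases before to 50 bases after the annotated start on GRCm38.p6, 5′ to 3′ on the minus strand, with capitals for an E-box (CANNTG, the site of MyoD-type factors).
Myhas promoter, chr11:67237232-67237531: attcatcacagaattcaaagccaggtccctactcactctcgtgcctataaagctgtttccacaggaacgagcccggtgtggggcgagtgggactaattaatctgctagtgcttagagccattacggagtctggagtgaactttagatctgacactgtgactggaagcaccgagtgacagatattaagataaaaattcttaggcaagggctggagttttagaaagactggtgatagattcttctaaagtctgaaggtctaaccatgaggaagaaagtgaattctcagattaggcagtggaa
2310065F04Rik promoter, chr11:67120031-67120330: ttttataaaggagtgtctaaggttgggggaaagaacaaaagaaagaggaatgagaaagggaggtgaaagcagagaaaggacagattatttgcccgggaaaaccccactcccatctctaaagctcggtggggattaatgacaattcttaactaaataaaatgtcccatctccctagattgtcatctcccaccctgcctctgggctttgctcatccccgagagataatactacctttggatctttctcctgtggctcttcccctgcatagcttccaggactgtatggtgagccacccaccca
A930016O22Rik promoter, chr7:19421368-19421667: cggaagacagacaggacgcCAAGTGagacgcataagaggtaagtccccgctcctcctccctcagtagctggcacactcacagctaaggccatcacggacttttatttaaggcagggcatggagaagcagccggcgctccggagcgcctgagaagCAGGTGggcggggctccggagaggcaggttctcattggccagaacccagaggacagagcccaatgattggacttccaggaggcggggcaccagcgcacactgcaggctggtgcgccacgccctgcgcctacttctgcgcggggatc
2310016D03Rik promoter, chr12:30467309-30467608: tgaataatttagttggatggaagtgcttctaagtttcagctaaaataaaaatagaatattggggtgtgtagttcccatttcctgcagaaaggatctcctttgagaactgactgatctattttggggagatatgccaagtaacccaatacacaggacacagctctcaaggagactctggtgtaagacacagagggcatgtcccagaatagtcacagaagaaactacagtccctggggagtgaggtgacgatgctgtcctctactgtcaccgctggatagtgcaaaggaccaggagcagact

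Among the 4 promoters, A930016O22Rik had 2 E-boxes, CAAGTG and CAGGTG, and the other promoters had none. An E-box was present in 72.3% of 32851 promoters of this length, on either strand. No promoter of the 4 held the MEF3 box bound by sine oculis homeobox proteins (TCAGGTTTC, in 0.429% of all promoters), a MEF2 site (in 3.19%) or a CArG box (in 1.63%). These are matches of letters in a window of 300 bases and say nothing of binding.

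The last 60 bases of the annotated transcript are shown for 3 noncoding genes, because droplet systems commonly prime from poly(A) stretches (the kit chemistry is not given in the sources used here) and the level of Platr31 was very different between the library systems. Capitals mark a poly(A) signal, AATAAA.
Myhas end: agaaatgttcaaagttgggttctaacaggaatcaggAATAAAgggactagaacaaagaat
9430073C21Rik end: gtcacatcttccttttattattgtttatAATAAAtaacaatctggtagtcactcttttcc
Platr31 end: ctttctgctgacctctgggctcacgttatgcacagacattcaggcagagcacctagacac

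A poly(A) signal stood in the last 60 bases of 5 of 8 transcripts examined, 24 bases from the end in Myhas and 32 bases from the end in 9430073C21Rik. None was found in this window for Platr31, 2310065F04Rik and Gm14505. Whether a signal bears on the level in either library system was not tested.

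Myhas, the antisense RNA next to Myh4, was highest in Myh4-dominant nuclei in 3 of 4 libraries of the 10x set. A myonucleus outside the junction clusters was called Myh4-, Myh1-, Myh2- or Myh7-dominant where that gene held at least 60% of at least 3 myosin UMIs. In Myh4-dominant nuclei of the 10x set, Myhas had 914 CPM in Young, 307 in Old, 748 in Running and 365 in Sedentary. In Myh1-dominant nuclei it had 441, 422, 307 and 293 CPM in the same order. Only in Old replicate 1 were Myh1-dominant nuclei above Myh4-dominant nuclei, with 95% Poisson intervals of 299 to 315 against 387 to 459 CPM (exact intervals, covering counting error only). In Myh2-dominant nuclei Myhas had 57.3 to 98.4 CPM, and in the Myh7-dominant nuclei of Old and Sedentary 33.7 and 22 CPM. The Myh4-dominant nuclei of the second set had 546 CPM in Young, 373 in Old, 443 in Running and 434 in Sedentary.

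2310065F04Rik, or linc-Myh, was highest in Myh4-dominant nuclei in 4 of 4 libraries of the 10x set. Myh4-dominant nuclei of the 10x set had 126 CPM in Young, 30.9 in Old, 88.0 in Running and 17.1 in Sedentary. Myh1-dominant nuclei followed at 84.4, 10.3, 61.5 and 13.3 CPM in this order, and Myh2-dominant nuclei at 58.1, 4.94, 29.9 and 4.80 CPM. Within each 10x library the order was Myh4, Myh1 and Myh2. The spread between libraries was larger than that between fibre types, since Myh2-dominant nuclei in Young were above Myh4-dominant nuclei in Old and Sedentary.

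9430073C21Rik, antisense to the end of Myh2, was high in type IIa nuclei. Its level in Myh2-dominant nuclei of the 10x set was 161 CPM in Young, 239.8 in Old, 269 in Running and 133 in Sedentary. In Myh4-dominant nuclei it was 6.1, 4.91, 9.29 and 6.97 CPM in this order. Myh1-dominant nuclei were between the other groups at 10.3 to 62.1 CPM. The ranges of Myh2- and Myh4-dominant nuclei did not overlap in the 10x set. In the second set the Myh2-dominant nuclei were few (27 to 176 in 3 libraries) and had 1 to 15 UMIs of this gene per library.

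2310016D03Rik, an intergenic RNA, was high in both Myh1- and Myh2-dominant nuclei and low in Myh4-dominant nuclei. The 10x levels in Myh1-dominant nuclei were 603 CPM in Young, 405 in Old, 537 in Running and 315 in Sedentary. Those in Myh2-dominant nuclei were 595, 316, 502 and 399.7 CPM, so that these 2 types overlapped and changed order between libraries. Myh4-dominant nuclei had 27.8 to 101 CPM and the Myh7-dominant nuclei of Old and Sedentary 116 and 111 CPM. In the second set Myh1-dominant nuclei had 168 to 489.6 CPM in 3 libraries, each above the Myh4-dominant nuclei of the same library, which had 62.7 to 169.5 over 4 libraries.

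Among the fibre types, A930016O22Rik, Platr31, Sorbs2os and Gm14505 were each highest in Myh4-dominant nuclei in all 4 libraries of the 10x set. For A930016O22Rik, the antisense gene in Ckm, these nuclei had 118 CPM in Young, 193.7 in Old, 269 in Running and 109.7 in Sedentary, against 45.0 to 74.1 in Myh2-dominant nuclei. For Sorbs2os they had 42.5, 364, 217 and 99.0 CPM in this order against 0 to 16.7. The zero was in Young, where the 69 Myh2-dominant nuclei had 0 UMIs, which allows up to 13.4 CPM. For Gm14505 Young was again at 0 UMIs in Myh2-dominant nuclei, and the values were 17.4, 52.0, 127 and 22.3 CPM against 0 to 13.2. For Platr31 they were 47.9, 196, 68.5 and 70.0 CPM against 8.94 to 29.2.

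The coding gene F830016B08Rik also stood higher in Myh4-dominant than in Myh2-dominant nuclei in 4 of 4 libraries of the 10x set. Its Myh4-dominant level was 238 CPM in Young, 30.5 in Old, 56.9 in Running and 33.7 in Sedentary, so that Young replicate 1 was high and the other 3 libraries lay between 30.5 and 56.9. The Myh1-dominant (32.3 CPM) and Myh7-dominant (35.4 CPM) nuclei of Old were at the level of its Myh4-dominant nuclei. Mir133a-1hg differed least among fibre types. In Young its 10x levels were 1735 CPM in Myh4-, 1867 in Myh1- and 1453 in Myh2-dominant nuclei, and in Sedentary 611, 559 and 518 CPM with 503 in Myh7-dominant nuclei. Its mean difference between Myh4- and Myh2-dominant nuclei was 0.30 on the log2(CPM + 1) scale with an SD of 0.11 over 4 libraries, against 2.75 with an SD of 0.50 for Myhas.

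**Figure D2:**
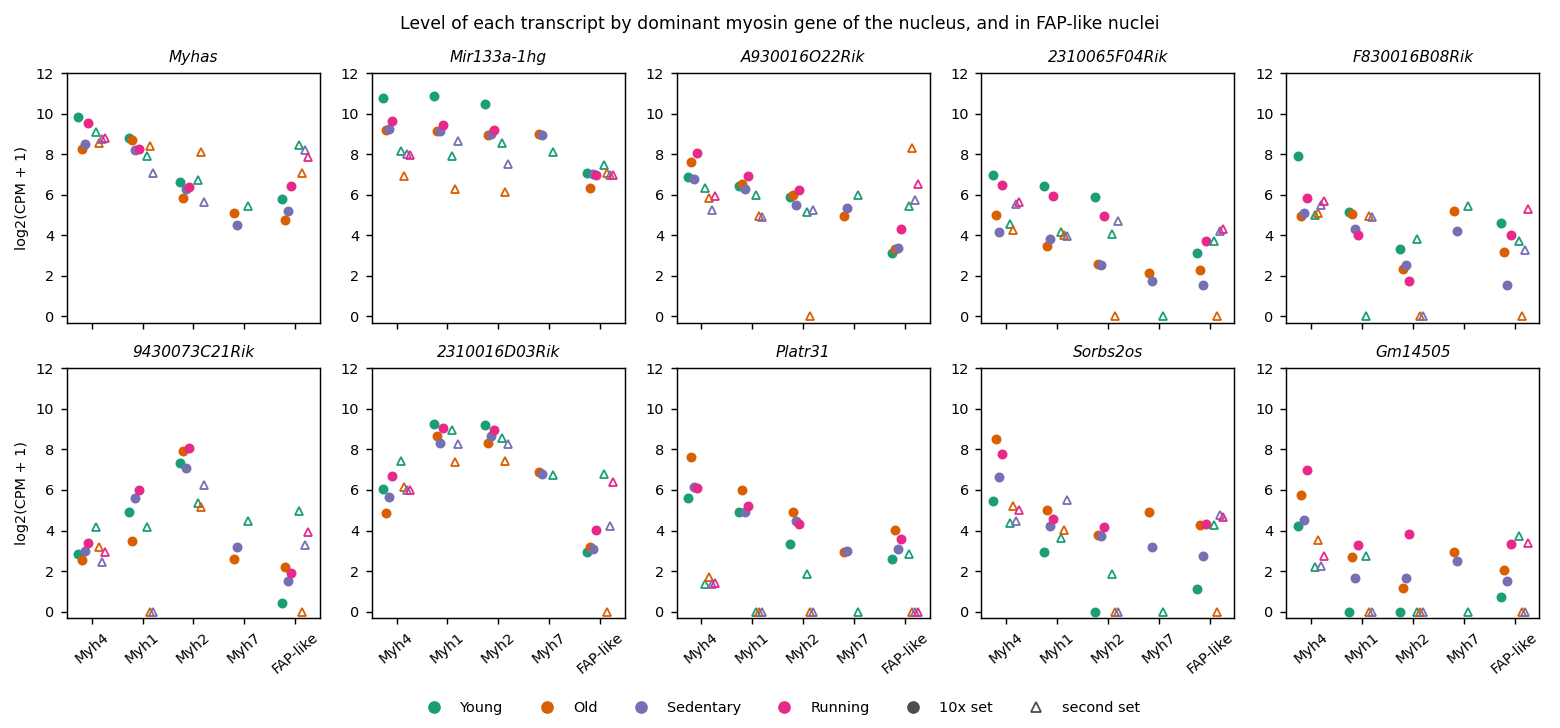
Level of the 10 transcripts, as log2(CPM + 1), in nuclei dominated by Myh4, Myh1, Myh2 or Myh7 and in FAP-like nuclei, 1 point per library with at least 20 such nuclei (filled circles for the 10x set, open triangles for the second set, colours for groups). 9430073C21Rik peaks in Myh2-dominant nuclei, 2310016D03Rik in Myh1- and Myh2-dominant nuclei, and Mir133a-1hg is nearly level across fibre types.

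Because longer genes collect more UMIs from unspliced RNA, genes were compared with each other only per kb of gene length. In the myonuclei of the 10x set Mir133a-1hg had the highest level, 134 to 415 CPM per kb. A930016O22Rik followed with 21.6 to 60.5 and Myhas with 10.2 to 33.4 CPM per kb, ranges that overlapped. Low levels were those of Gm14505, Sorbs2os and 2310016D03Rik, at 0.32 to 2.43, 0.43 to 3.0 and 1.5 to 2.92 CPM per kb, ranges that overlapped with each other and with those of 2310065F04Rik and 9430073C21Rik.

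The junction nuclei of the fibre differed in several of these transcripts. In myotendinous junction-like nuclei of the 10x set, Sorbs2os had 78.9 CPM in Young, 319 in Old, 372 in Running and 87.0 in Sedentary, above the level over all myonuclei in 4 of 4 libraries. These were above Myh4-dominant nuclei in Young (42.5 CPM) and Running (217 CPM) and below them in Old (364 CPM) and Sedentary (99.0 CPM). Myhas was lower there, at 507, 146, 467 and 147 CPM, than over all myonuclei in 4 of 4 libraries. 2310016D03Rik had 15.3, 27.2, 79.2 and 53.5 CPM, which was also below all myonuclei in each library. Gm14505 had 2.55 CPM in Young, 12.4 in Old and 50.4 in Running, while in Sedentary it had 0 UMIs, which allows up to 10.04 CPM. In the neuromuscular junction-like nuclei, 91 to 138 per 10x library, Myhas and Mir133a-1hg were below their level over all myonuclei in 4 of 4 libraries. Mir133a-1hg, for example, had 1295 CPM there in Young against 1725 over all myonuclei.

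Outside the muscle fibre the transcripts were also counted, at levels that depended on the cell class. FAP-like nuclei of the 10x set had 26.0 to 84.9 CPM of Myhas, 6.3% to 13% of the level in myonuclei of the same library. Of the muscle genes that these nuclei should lack, Ttn had 5.7% to 8.1% and Ckm 17.7% to 38.3%. After thinning every nucleus to 500 UMIs, a Myhas UMI was found in 11.6% to 33.2% of myonuclei and 0.99% to 4.32% of FAP-like nuclei; without thinning, 58.8% of Myh4-dominant nuclei in Old and 85.6% in Young had one. Mir133a-1hg had 7.8% to 22.9% of its myonuclear level in FAP-like nuclei and F830016B08Rik 7.4% to 31.2%, mostly above the share of Ttn. Mir133a-1hg was below the share of Ckm in 4 of 4 libraries, and F830016B08Rik was above it in Old and Running only. Endothelial-like nuclei had more than FAP-like nuclei of several transcripts. They also had more Ttn, with 12529 CPM in the 10x endothelial cluster against 3116 to 3455 in the FAP-like clusters. The macrophage cluster had 9254 CPM of Ttn. In single libraries, endothelial-like nuclei had 196.9 CPM of Myhas in Sedentary, against 277 over all myonuclei, and 37.4 CPM of Sorbs2os in Young, against 41.0. Macrophage-like nuclei had 26.3 to 49.5 CPM of F830016B08Rik, at or above the level over all myonuclei in 3 of 4 libraries. How much of these levels was free RNA was not tested. FAP-like nuclei of the second set had 43.7% to 85.3% of the myonuclear level of Myhas 55.2% to 76.3% of that of Ttn and 96.5% to 115% of that of Ckm, so that there a UMI in a single nucleus does not show that the nucleus expressed the gene.

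Between Old and Young, 5 of 10 transcripts in myonuclei had an unadjusted p under 0.05 and none passed the adjusted threshold. Myhas and Mir133a-1hg were measured lower in Old in both library sets, and Platr31, Sorbs2os and Gm14505 higher in Old in both. The test was edgeR's quasi-likelihood test on UMIs summed per library, with group and library set as terms and Benjamini-Hochberg adjustment over all genes tested, and it called 0% of 18550 genes in myonuclei. At an unadjusted p under 0.05 it had 702 genes, or 3.78%, and DESeq2 called 6 genes, none of the 10. The median log2 fold change was -0.67 over the 10 transcripts and 0.11 over all genes. Higher in Old in both sets were 3 of the 10 (41.1% of all genes) and lower in both were 4 of the 10 (13.4% of all genes). The 10 were chosen by their levels in these same data. Shares of the 10 beside all genes are therefore descriptions, here and between Running and Sedentary. For example, the 10x cluster with Sorbs2os and Platr31 among its leading genes drew 59.6% of its nuclei from Old replicate 1. The 10x cluster led by F830016B08Rik drew 44.9% from Young replicate 1. Not all such clusters leaned the way of the age difference. The 10x cluster with Gm14505 among its leading genes drew 47.7% from Young replicate 1, while Gm14505 was measured higher in Old. That with 2310016D03Rik drew 43.6% from Sedentary replicate 1.

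Mir133a-1hg had 557 CPM in Old and 1725 CPM in Young in the myonuclei of the 10x set, and 110 and 288 CPM in the second set. The level in Young was the highest of all 4 groups in each set. The log2 fold change was -1.75 with a standard error (SE) of 0.41 (unadjusted p = 0.0029, adjusted p = 0.89 by edgeR, lower in 2 of 2 sets). Myhas had 269 CPM in Old and 880 CPM in Young in the 10x set, and 306 and 414 CPM in the second. Old was the lowest of the 4 groups in each set, although the groups overlapped when the sets were put together. Its log2 fold change was -1.34 (SE 0.42, unadjusted p = 0.013, adjusted p = 0.89 by edgeR) and became -0.74 without Young replicate 1.

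Sorbs2os had 288 CPM in Old and 41.0 in Young in the 10x set, and 31.6 and 16.3 in the second set. All its 10x levels were above all levels of the second set, and within each set Old was the highest group. Its log2 fold change was 1.77 (SE 0.45, unadjusted p = 0.0051, adjusted p = 0.89 by edgeR) and became 0.85 without Old replicate 1. Platr31 had 159 CPM in Old and 46.1 in Young in the 10x set. In the second set it had only 3.43 and 1.40 CPM, from 5 and 10 UMIs, so that its log2 fold change of 1.42 (SE 0.30, unadjusted p = 0.0018, adjusted p = 0.89 by edgeR) rested mainly on the 10x libraries and became 0.92 without Old replicate 1. Gm14505 had 40.3 and 16.6 CPM in the 10x set and 8.24 and 3.50 CPM in the second, with a log2 fold change of 1.02 (SE 0.52, adjusted p = 0.89 by edgeR) that became 0.67 without Young replicate 1.

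F830016B08Rik had 27.6 CPM in Old and 225 CPM in Young in the 10x set, but 28.8 and 26.6 CPM in the second set. The high level was found in Young replicate 1 only, and the 7 other libraries had 25.6 to 48.4 CPM. Its log2 fold change of -2.23 (SE 0.87, unadjusted p = 0.034, adjusted p = 0.89 by edgeR) became 0.020 without Young replicate 1. 2310065F04Rik had 26.3 and 122 CPM in the 10x set and 15.1 and 20.3 CPM in the second, with a log2 fold change of -1.85 (SE 0.86) that became -0.11 without Young replicate 1. The remaining 3 transcripts had log2 fold changes of -0.98 (2310016D03Rik, SE 0.50), -0.35 (A930016O22Rik, SE 0.35) and 0.010 (9430073C21Rik, SE 0.82), the last 2 with opposite directions in the sets.

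**Figure D3:**
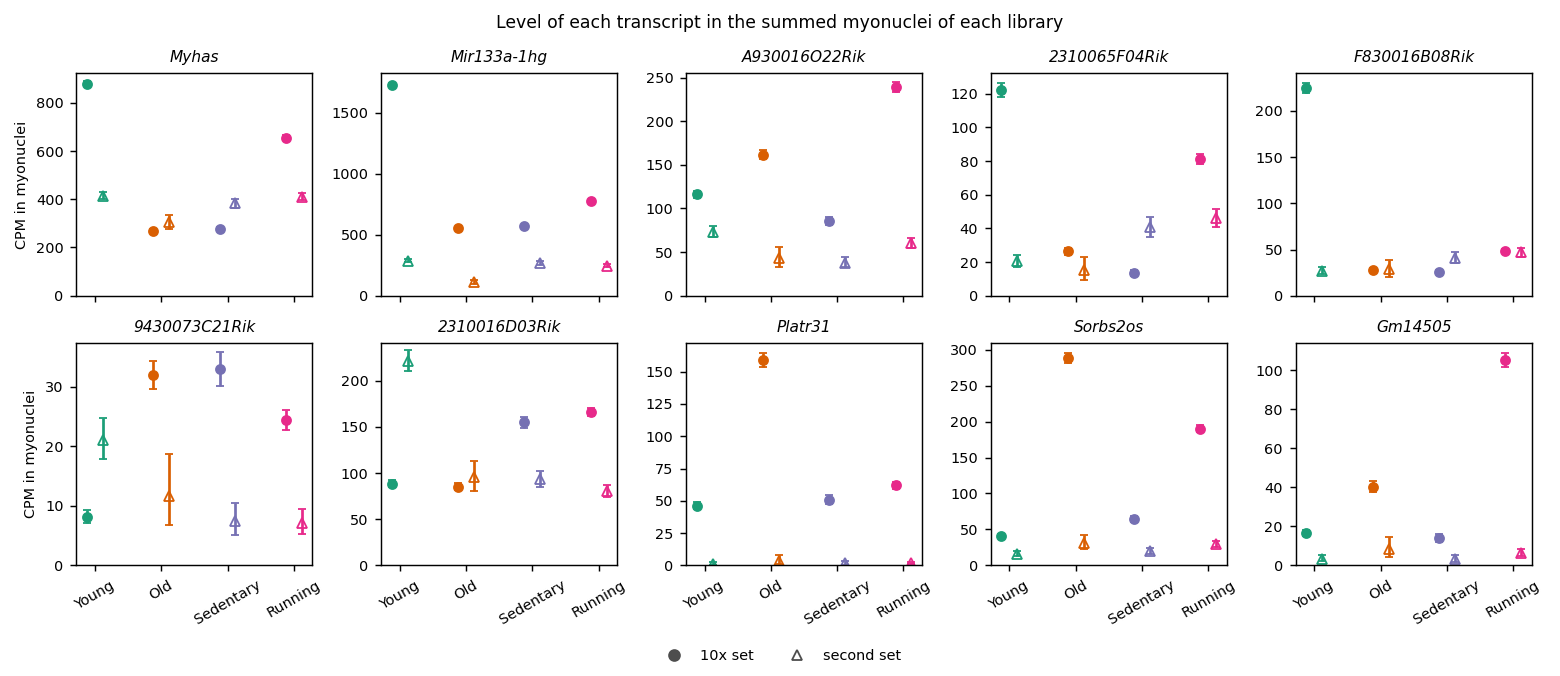
CPM of each transcript in the summed myonuclei of each library, by group, with exact 95% Poisson intervals for counting error (filled circles for the 10x set, open triangles for the second set; each vertical axis starts at 0). Mir133a-1hg is lowest in Old and highest in Young in both sets, and F830016B08Rik is high in Young of the 10x set alone.

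The shares of fibre types differed between these libraries: Myh4-dominant nuclei were 77.4% of the myonuclei outside the junction clusters in Old and 94.3% in Young of the 10x set, and 61.7% and 67.8% in the second set. Within Myh4-dominant nuclei the log2 fold changes were -1.69 for Mir133a-1hg (SE 0.38), -1.33 for Myhas (SE 0.34), 1.84 for Sorbs2os (SE 0.46), 1.52 for Platr31 (SE 0.37) and 1.27 for Gm14505 (SE 0.54). Without Old replicate 1 the value of Platr31 became 0.40, its second-set values resting on 2 and 7 UMIs, and that of Sorbs2os 0.97. Without Young replicate 1 the values became 1.04 for Sorbs2os, 0.80 for Gm14505 and -1.11 for Mir133a-1hg. 2310016D03Rik had 27.8 CPM in Old and 64.9 in Young of the 10x set and 69.5 and 169.5 CPM in the second, a log2 fold change of -1.53 (SE 0.44, unadjusted p = 0.0072, adjusted p = 0.93 by edgeR) that became -0.94 without Young replicate 2. Of the 10, 7 had an unadjusted p under 0.05 (4.45% of 16818 genes) and 0 passed the adjusted threshold (0% of genes; 5 genes by DESeq2, none of the 10). The directions of both sets were shared by 3 of the 10 upwards (37.1% of genes) and 5 of the 10 downwards (14.9% of genes). Over all nuclei, where no cluster was used, 8 of the 10 had an unadjusted p under 0.05 (2.74% of 20309 genes) and none passed the adjusted threshold by edgeR (0% of genes) or DESeq2. Higher in Old in both sets were 3 of the 10 (51.2% of genes) and lower in both 5 of the 10 (10.5% of genes). In such sums fewer myonuclei and less RNA per myonucleus cannot be told apart. There the second-set level of Platr31 in Old was 10.4 CPM, above its 3.43 CPM in myonuclei. The unnamed clusters of that library held 14.1 CPM of Platr31 and 24.8 CPM of Gm14505, and the part of these clusters in the difference was not tested.

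Between Running and Sedentary, 8 of 10 transcripts in myonuclei had a positive log2 fold change (48.2% of all genes) and none passed the adjusted threshold. edgeR called 0% of 18550 genes, DESeq2 also 0 genes, and 169 genes (0.911%) had an unadjusted p under 0.05, among them 3 of the 10: Gm14505, A930016O22Rik and Sorbs2os. The median log2 fold change was 0.53 over the 10 and -0.019 over all genes. Higher in Running in both sets were 7 of the 10 (27.4% of all genes), and 1 was lower in both (25.1% of all genes).

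Gm14505 had 105 CPM in Running and 14.0 CPM in Sedentary in the myonuclei of the 10x set, and 6.39 and 3.06 CPM in the second set, from 44 and 14 UMIs. Running of the 10x set was the highest of all 8 libraries and above Old, the next, at 40.3 CPM. The log2 fold change was 2.20 (SE 0.52, unadjusted p = 0.0032, adjusted p = 1.0 by edgeR) and became 1.17 without Running replicate 1. A930016O22Rik had 239 CPM in Running and 85.4 in Sedentary in the 10x set and 60.2 and 37.9 CPM in the second, with a log2 fold change of 1.09 (SE 0.35, unadjusted p = 0.015, adjusted p = 1.0 by edgeR). Running was the highest group in the 10x set, while in the second set Young was higher at 73.4 CPM. Sorbs2os had 190 and 64.4 CPM in the 10x set and 29.8 and 19.9 CPM in the second, with a log2 fold change of 1.08 (SE 0.44, unadjusted p = 0.041, adjusted p = 1.0 by edgeR) that became 0.62 without Sedentary replicate 1.

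Myhas had 656 CPM in Running and 277 in Sedentary in the 10x set, but 411 and 383 CPM in the second, with a log2 fold change of 0.62 (SE 0.41) that became 0.064 without Sedentary replicate 1 and 1.25 without Sedentary replicate 2. 2310065F04Rik had 81.1 and 13.5 CPM in the 10x set and 45.9 and 40.7 CPM in the second, with a log2 fold change of 0.97 (SE 0.84) that was -0.19 without Sedentary replicate 1. For both genes the sets thus gave the same direction and very different sizes. Mir133a-1hg had 772 and 571 CPM in the 10x set and 246 and 269 CPM in the second set, a log2 fold change of 0.084 (SE 0.39). The log2 fold changes of the other 4 were 0.45 for F830016B08Rik (SE 0.79), 0.23 for Platr31 (SE 0.30), -0.31 for 9430073C21Rik (SE 0.73) and -0.014 for 2310016D03Rik (SE 0.48).

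The 10x Sedentary library had fewer UMIs and other fibre types than the 10x Running library: a median of 2166 against 3505 UMIs per myonucleus, and 53.2% against 82.4% Myh4-dominant nuclei among myonuclei outside the junction clusters. These shares were 86.7% and 93.0% in the second set. Within Myh4-dominant nuclei the log2 fold change was 1.75 for Gm14505 (SE 0.51, unadjusted p = 0.0074, adjusted p = 1.0 by edgeR), 0.96 for A930016O22Rik (SE 0.34, unadjusted p = 0.019) and 0.81 for Sorbs2os (SE 0.43, unadjusted p = 0.093). Without Running replicate 1 the first became 0.58 and the second 0.63. Of the 10, 2 had an unadjusted p under 0.05 there (1.21% of 16818 genes), and 8 were higher in Running in both sets (31.6% of genes) and 0 lower in both (21.9% of genes). edgeR and DESeq2 called none of the 10, and edgeR 0% of all genes. Over all nuclei 1 of the 10 had an unadjusted p under 0.05 (0.483% of 20309 genes) and none passed the adjusted threshold (0% of genes). Higher in Running in both sets were 7 of the 10 (25.9% of genes) and lower in both 1 of the 10 (25.9% of genes). With only the 4 libraries of this comparison in the fit, 3 of the 10 passed the adjusted threshold over all nuclei, as did 0.445% of 18409 genes. The 3 were Gm14505 (adjusted p = 0.00076 by edgeR), 2310065F04Rik (0.034) and A930016O22Rik (0.043), all higher in Running. That fit had fewer residual degrees of freedom than the main fit, and the share of myonuclei enters such sums. In the main fit over all nuclei, the log2 fold change of Gm14505, 2.04, became 0.72 without Running replicate 1. Without Sedentary replicate 2, 1.99% of 21014 genes and 1 of the 10 passed, 2310065F04Rik, with a log2 fold change of 3.05 (adjusted p = 0.022 by edgeR).

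**Figure D4:**
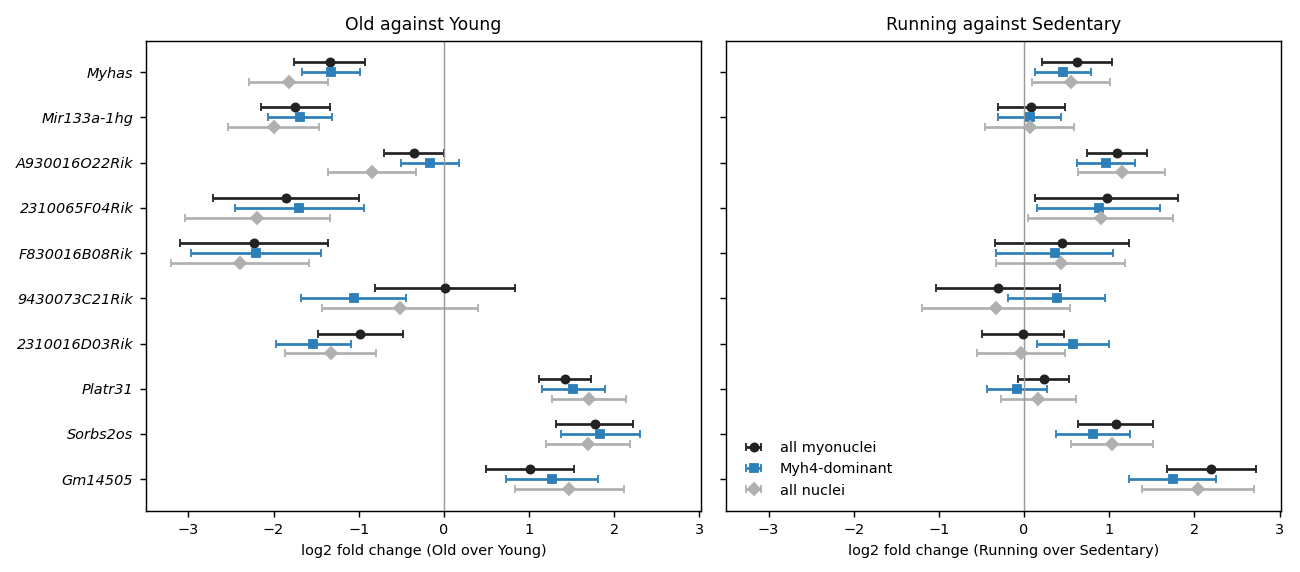
Log2 fold change of each transcript with its standard error from the edgeR fit, Old over Young (left) and Running over Sedentary (right), in all myonuclei (black circles), Myh4-dominant myonuclei (blue squares) and all nuclei (grey diamonds). Platr31, Sorbs2os and Gm14505 lie right of 0 in the left panel and Gm14505 lies farthest right in the right panel, and none passed the adjusted threshold in these fits.

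The genes around these transcripts were fixed by position. Of their 22 overlapping or nearest coding genes, 18 were tested in myonuclei. In either comparison 0 passed the adjusted threshold, as did 0% of all 18550 genes, so the count says nothing particular to the neighbours. Their median log2 fold change was -0.010 for age and -0.097 for running. Of the 7 skeletal myosin heavy chain genes, 0 passed in either comparison (0% of all genes). Myh4 itself had a log2 fold change of -0.87 between Old and Young within Myh4-dominant nuclei (SE 0.36, unadjusted p = 0.041, adjusted p = 0.93 by edgeR). Sorbs2, the host of Sorbs2os, had 1000 CPM in Old and 569 in Young in the 10x set, and 546 and 444 CPM in the second, so that host and antisense gene both had their higher value in Old. Tigar, opposite to Platr31, had 146 and 120 CPM in the 10x set and 41.9 and 90.8 CPM in the second. In the second set Tigar was thus well measured where Platr31 was nearly missing. Mib1 had 408 and 325 CPM in the 10x set and 83.8 and 106 CPM in the second, whereas Mir133a-1hg inside it was lower in Old in both.

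Regulators of fibre type and other long noncoding RNAs were measured as lists chosen for this tissue. Of 21 regulator genes in myonuclei, 0 passed the adjusted threshold between Old and Young (0% of all genes) and 5 had an unadjusted p under 0.05 (3.78% of all genes). A negative log2 fold change was found for 18 (43.5% of all genes), with a median of -0.45 over the 21 against 0.11 for all genes. Among the 5 were the transcription factor genes Maf (-1.31, SE 0.54), Mef2c (-0.99, SE 0.30) and Sox6 (-0.83, SE 0.34) and the cofactor gene Eya1 (-0.78, SE 0.27). Maf is a known regulator of type IIb fibres, and Eya1 acts with the sine oculis homeobox proteins. Between Running and Sedentary, 0 of 21 had an unadjusted p under 0.05 (0.911% of all genes). Of 18 other long noncoding RNAs tested, 0 passed the adjusted threshold in either comparison (0% of all genes). Between Old and Young 2 had an unadjusted p under 0.05 (3.78% of all genes), Kcnq1ot1 (-0.72, SE 0.28) and Dleu2 (-0.54, SE 0.23). Between Running and Sedentary 2 had one (0.911% of all genes), Meg3 (2.21, SE 0.80) and Gm28653 (-2.69, SE 1.15). Within Myh4-dominant nuclei 1 of 18 had an unadjusted p under 0.05 in each comparison (4.45% of genes for age and 1.21% for running).

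The genes whose levels ran most like these transcripts were found by Pearson's correlation of log2(CPM + 1) over 55 sums of nuclei (fibre types and cell classes of the 4 10x libraries) among 10076 genes. These sums share libraries and depth, so the values are descriptions. Sorbs2os and Platr31 were most like the gene that they overlap, Sorbs2 (r = 0.89) and Tigar (r = 0.85). Mir133a-1hg was most like Ryr1 (r = 0.92), the calcium release channel, then Palld and Jph1 (both r = 0.92). Myhas was most like Ube2d1 (r = 0.90), Ky (0.88) and Pygm (0.88), the glycogen phosphorylase of muscle. 2310065F04Rik was most like Ldha (r = 0.84), a lactate dehydrogenase, and Ampd1 (0.84), the AMP deaminase of muscle. 2310016D03Rik was most like Kcnn2 (r = 0.91), a calcium-activated potassium channel, and Ckmt2 (0.88), the mitochondrial creatine kinase of muscle. Among the genes most like 9430073C21Rik were Esrrg (r = 0.79), an orphan nuclear receptor of oxidative muscle, and Got1 (r = 0.78). A930016O22Rik was most like Rabep2 (r = 0.89). F830016B08Rik and Gm14505 had the weakest likenesses, to Exoc7 (r = 0.61) and Gm15816 (r = 0.68). Among the 10, the closest pairs were 9430073C21Rik with 2310016D03Rik (r = 0.76) and Myhas with 2310065F04Rik (r = 0.75).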

How the data were processed

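The deposited matrices hold raw UMI counts per gene and nucleus. The study's methods name Cell Ranger 6.1.2 for 10x libraries and PISA for DNBelab C libraries, both on mm10, and Seurat 4.1.1 for later steps. Kept were nuclei with mitochondrial UMIs under 6% and a gene number above 200 and below 6000, and 21207 symbols in all 8 files were used. Each library set was clustered with scanpy 1.11.5 (30 components, resolution 1), leaving out the 10 transcripts and mitochondrial and ribosomal genes. Clusters outside the fibre and of the junctions were named from marker lists. Other clusters were called myonuclei where Ttn was high and every class outside muscle scored under 1. The naming limits (a score of at least 2, leading genes of a median length of at most 300 kb) were set after the clusters were seen. No doublet caller was used in the main fits; in an alternative the top 6% by Scrublet score were removed. Levels are CPM of summed nuclei over all common symbols, with exact 95% Poisson intervals; a count of 0 allows 3 counts, and intervals and floors cover counting error only. Summed counts were tested with edgeR 4.0.16 (TMM, filterByExpr, glmQLFTest) with group and library set as terms over all 8 libraries, without mitochondrial and ribosomal genes, leaving 3 residual degrees of freedom, and DESeq2 1.42.0 was an alternative. SE is the log2 fold change divided by the square root of F. The replicate numbers follow the 2 library sets, and the set was therefore a block. Calls need an adjusted p under 0.05. The script was tested on simulated data.

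The 10 transcripts, the gene lists and the tests were chosen with earlier results of these data known. Named genes are the 10 transcripts, their overlapping or nearest coding neighbours, myosin heavy chain genes, listed fibre-type regulators and long noncoding RNAs, and the 3 genes most like each transcript; some of these genes are not reported here. Positions come from GENCODE vM21 and promoter sequences from RefSeq (GRCm38.p6). Sequences of the chromosome 18 genes are not shown.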

Additional observations from a re-analysis of the deposited data

How the results depend on the processing

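No adjusted call on the 10 transcripts was made by the edgeR fit in any population, and this held without the replicate block (0 of 10 in all 6 results), with DESeq2 size factors, the DESeq2 Wald test, no filter on low counts and without doublets. It did not hold for Running against Sedentary over all nuclei, where 3 of 10 (0.445% of all genes) passed with the 4 libraries of the comparison. That fit had fewer residual degrees of freedom than the main fit. Leaving out a library left a single library in its group, so passing the threshold in those fits is weak evidence. Of the log2 fold changes of single transcripts under settings other than leaving out a library, 386 of 400 kept their direction and their side of the threshold, 11 changed sign and 3 newly passed. When a library was left out, 442 of 480 kept both, 37 changed sign and 1 newly passed.

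In myonuclei, the value of 9430073C21Rik between Old and Young, 0.0097, became -0.0145 with DESeq2 size factors, -0.0494 with the DESeq2 Wald test, -0.0861 without the filter and -0.315 with the myosin UMI gate without clusters. The value of 2310016D03Rik between Running and Sedentary, -0.0137 in myonuclei, became 0.0134 without the replicate block and 0.0058 with the cluster of long genes kept, an alternative chosen after seeing the data. Over all nuclei it was -0.0348 and became 0.0266 with DESeq2 size factors, 0.0265 with the Wald test and 0.0125 with 4 libraries. Between Old and Young, A930016O22Rik in Myh4-dominant nuclei went from -0.163 to 0.158 without the replicate block, and 9430073C21Rik over all nuclei from -0.518 to 0.129 with 4 libraries.

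With each library left out in turn, the log2 fold change between Old and Young in myonuclei ranged from -1.236 to 1.83 for 9430073C21Rik, -3.39 to 0.0195 for F830016B08Rik, -0.857 to 0.093 for A930016O22Rik and -1.76 to 0.0229 for 2310016D03Rik. In Myh4-dominant nuclei it ranged from -2.50 to 0.0055 for 2310065F04Rik and -0.722 to 0.490 for A930016O22Rik, and over all nuclei from -1.76 to 1.87 for 9430073C21Rik. Between Running and Sedentary in myonuclei it ranged from -0.464 to 0.816 for Mir133a-1hg, -0.190 to 2.999 for 2310065F04Rik, -0.284 to 1.53 for F830016B08Rik, -0.828 to 0.506 for 9430073C21Rik, -0.693 to 0.500 for 2310016D03Rik and -0.0675 to 0.349 for Platr31. In Myh4-dominant nuclei it ranged from -0.376 to 0.681 for Mir133a-1hg, -0.193 to 2.69 for 2310065F04Rik, -0.238 to 1.237 for F830016B08Rik, -0.0699 to 1.07 for 9430073C21Rik, -0.272 to 1.28 for 2310016D03Rik and -0.0971 to 0.173 for Platr31. Over all nuclei the ranges were -0.0356 to 1.34 for Myhas, -0.517 to 0.928 for Mir133a-1hg, -0.205 to 3.05 for 2310065F04Rik, -0.316 to 1.65 for F830016B08Rik, -1.15 to 0.689 for 9430073C21Rik, -0.615 to 0.392 for 2310016D03Rik and -0.299 to 0.438 for Platr31. The cause was not tested.

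Over all genes the calls rose from 0 to 6 in myonuclei and 5 in Myh4-dominant nuclei with DESeq2 between Old and Young, and to 82 over all nuclei with the 4 libraries of Running and Sedentary. Calls between Running and Sedentary also rose without Sedentary replicate 2, in a fit with a single Sedentary library. Thinning to 1000 instead of 500 UMIs raised the mean share of 10x myonuclei with a UMI to 34.8% for Myhas, 53.1% for Mir133a-1hg, 14.3% for A930016O22Rik, 5.66% for 2310065F04Rik, 2.27% for 9430073C21Rik, 9.39% for 2310016D03Rik, 7.51% for Platr31 and 11.99% for Sorbs2os. With 80% in place of 60% or 5 in place of 3 myosin UMIs, no difference between Myh4- and Myh2-dominant nuclei moved by more than its SD. With 2 libraries a group and 3 residual degrees of freedom, even large differences could go uncalled. In myonuclei, log2 fold changes of 2.20 (Gm14505, Running against Sedentary) and -2.23 (F830016B08Rik, Old against Young) did not pass. The lack of calls therefore does not show that differences were small.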
